A study of Caenorhabditis elegans with 18 samples.

Results

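Among the 20953 genes with an FPKM value (a level scaled to transcript length and sequencing depth), 10 were taken by name because their level in nhr-68 mutant Caenorhabditis elegans differed from both other genotypes under every treatment. They are pygo-1, ivd-1, snpn-1, C02B10.4, R09E10.2 and C27C7.1, which were higher in the mutant, and nra-2, Y58A7A.3, WBGene00194647 and exh-1, which were lower. The difference between the nhr-68 libraries and the others is how these genes were chosen, so it is described here without a test. The questions left to test are how the 10 genes answered each treatment and whether the nhr-10 mutant differed from wild type. Their place on the chromosomes, and what their neighbours did, is given as a description.

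The 18 RNA-seq libraries cover 3 genotypes and 3 treatments, with 2 libraries in each of the 9 groups. The genotypes were wild type N2, animals with the nhr-10 deletion allele tm4695, for which the labels name no strain, and the strain VC1527 with the nhr-68 deletion allele gk708. Whole L4 larvae, about 3000 per library synchronized beforehand by 18 h of L1 arrest, were taken from plates without supplement (untreated), with 20 nM vitamin B12, or with that dose of vitamin B12 plus 40 mM propionate, a treatment of 48 h. Every library with propionate therefore also had vitamin B12, and the propionate response was taken against vitamin B12 alone. All nhr-68 libraries come from the single strain VC1527, so the gk708 deletion and any other difference between that strain and N2 cannot be told apart. The labels do not say that the 2 libraries of a group came from separate cultures, and p-values then measure only the spread between these libraries. In RNA from whole animals, fewer cells of a type and less RNA per cell cannot be told apart.

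NHR-10 and NHR-68 are nuclear hormone receptors, transcription factors known in C. elegans for switching on an alternative propionate breakdown pathway when vitamin B12 is scarce. With vitamin B12, propionate is broken down through a route that depends on the vitamin, and the alternative pathway is turned down. Among the 10 genes, ivd-1 encodes isovaleryl-CoA dehydrogenase, a mitochondrial enzyme of leucine breakdown. The product of pygo-1 is the worm homologue of Pygopus, a PHD finger protein of Wnt signalling. SNPN-1 is the homologue of snapin, a subunit of the BLOC-1 and BORC complexes that act on lysosome-related organelles and vesicles. NRA-2 is the homologue of nicalin, an endoplasmic reticulum protein that in the worm influences which subunits make up acetylcholine receptors.

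The targeted gene separated the nhr-68 libraries from wild type: nhr-68 was listed at 1.71 to 14.95 FPKM in the nhr-68 strain and at 48.69 to 108.25 FPKM in wild type. In nhr-10 mutants, nhr-68 stood at 79.06 and 140.23 FPKM untreated but between 5.18 and 18.19 FPKM in the 4 libraries with vitamin B12. The nhr-10 gene itself was at 6.14 to 10.33 FPKM in its own mutant and at 12.23 to 33.45 FPKM in wild type. Depth, estimated from the spacing of the lowest FPKM values, was 13500000 to 13700000 fragments in the 6 nhr-68 libraries and 12900000 to 13200000 in the 12 others. The length taken off each transcript in that estimate was 0 to 10 bp in the nhr-68 libraries and 20 to 50 bp in the others, and the part of this difference in the results was not tested. The correlation between the 2 libraries of a group was 0.9695 to 0.9859 on the log2 scale. All 57 markers in 7 tissue lists were detected in every library. The summed level of each list overlapped between the nhr-68 libraries and the 12 others when wild type and nhr-10 were pooled. Intestine markers summed to 4681.66 to 5838.4 FPKM in nhr-68, 3102.08 to 5235.87 FPKM in wild type and 3130.14 to 4665.38 FPKM in nhr-10. For hypodermis and cuticle markers the ranges were 1212.3 to 2812.61, 1765.03 to 5344.77 and 1036.14 to 5320.72 FPKM in that order. The intestine sums of nhr-68 thus lay above all those of nhr-10 and overlapped only those of wild type. None of the 57 markers was at 0. Each of the 57 was compared between nhr-68 and wild type in 3 treatments, and 7 of these comparisons passed in limma. Of all tested genes, 6.02% passed untreated, 9.84% with vitamin B12 and 3.13% with propionate. Untreated, the sperm genes spe-11 (a log2 difference of -0.82 ± 0.14, adjusted p of 0.00805) and gsp-4 (-0.43 ± 0.12, adjusted p of 0.0493) were lower in nhr-68. With vitamin B12 the intestinal genes act-5 (0.87 ± 0.20, adjusted p of 0.0172) and ifb-2 (0.83 ± 0.22, adjusted p of 0.0333) and the sperm gene msp-142 (0.70 ± 0.17, adjusted p of 0.0221) were higher and the collagen gene dpy-13 was lower (-2.03 ± 0.42, adjusted p of 0.0126). With propionate spe-11 was lower again (-0.79 ± 0.14, adjusted p of 0.0144 in limma), and 6 of 7 body wall muscle markers had an unadjusted p under 0.05, with a list median of 0.59. Against nhr-10, 0 of the markers passed in limma, with up to 4 of a list at an unadjusted p under 0.05. There, 0.559% of all tested genes passed untreated, 0.141% with vitamin B12 and 1.28% with propionate. The part of tissue composition in the values below was not tested. On the first principal component (35.2% of the variance) the nhr-68 libraries lay between -42.79 and -15.7 and those of wild type between -1.14 and 57.59. Those of nhr-10 lay between -46.41 and 11.62 and overlapped both. On the second principal component nhr-10 propionate replicate 2 stood furthest out at 69.69, past its partner library at 31.97, and the pair had the lowest correlation of the 9 groups.

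The first 4 genes lie side by side on chromosome IV and were all higher in the nhr-68 strain. In the WBcel235 assembly, pygo-1 (WBGene00015330) occupies chromosome IV from 5083303 to 5086907 on the plus strand with 7 exons, and ivd-1 (WBGene00015326) runs from 5086856 to 5088864 on the minus strand with 4 exons. Next to them, snpn-1 (WBGene00015327) lies from 5090243 to 5091043 on the minus strand with 3 exons, and C02B10.4 (WBGene00015329) from 5091586 to 5092807 on the plus strand with 4 exons. The stretch covers 9505 bp and holds no other protein-coding gene. The facing ends of pygo-1 and ivd-1 overlap by 52 bp and those of C02B10.4 and its neighbour C02B10.3 by 8 bp. Whether strand was used in counting is not given in the sources used here, so reads in those overlaps cannot be told apart.

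For ivd-1, the nhr-68 libraries read 306.85 and 306.03 FPKM untreated, 224.33 and 210.63 FPKM with vitamin B12, and 388.59 and 379.7 FPKM with propionate added. Wild type read 75.88 and 74.14, 62.74 and 67.07, and 80.63 and 84.67 FPKM under the same treatments, and nhr-10 read 72.45 and 51.44, 72.01 and 60.17, and 65.25 and 67.04 FPKM. The lowest nhr-68 library was thus above the highest of the 12 others, and the ratio of the medians was 4.41. Within the nhr-68 strain, the enzyme's transcript was lowest on vitamin B12 and highest with propionate.

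For pygo-1, the nhr-68 libraries read 82.99 and 92.55 FPKM untreated, 76.77 and 87.67 FPKM with vitamin B12, and 79.36 and 83.31 FPKM with propionate. Wild type lay between 23.87 and 38.26 FPKM with a median of 27.4, and nhr-10 between 27.48 and 34.59 FPKM. Levels of pygo-1 in the mutant were apart from all 12 others, and the ratio of the medians was 2.79. Unlike ivd-1, pygo-1 had nearly the same level under all 3 treatments in the nhr-68 strain.

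For snpn-1, the nhr-68 libraries read 73.75 and 115.74 FPKM untreated, 71.27 and 81.94 FPKM with vitamin B12, and 67.54 and 84.91 FPKM with propionate. Wild type lay between 17.32 and 41.57 FPKM with a median of 27.1, and nhr-10 between 29.9 and 47.86 FPKM with a median of 34.2. The untreated nhr-68 libraries of snpn-1 were unlike each other, but both were above every library of the other genotypes, and the ratio of the medians was 2.51. C02B10.4 had the smallest difference of the run. Its nhr-68 libraries read 113.8 and 105.9, 103.62 and 105.88, and 115.08 and 111.28 FPKM, against 44.39 to 63.56 FPKM in wild type and 55.31 to 71.14 FPKM in nhr-10, a ratio of medians of 1.89.

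On the log2(FPKM + 1) scale, the nhr-68 strain was above the mean of the other genotypes by 1.45 ± 0.10 (SE) for pygo-1, 2.08 ± 0.07 for ivd-1, 1.36 ± 0.12 for snpn-1 and 0.93 ± 0.06 for C02B10.4. The genes on either side did not share the difference. C02B10.6, which ends 11039 bp before pygo-1, had a ratio of medians of 1.003 and a log2 difference of 0.21 ± 0.12. C02B10.3, which overlaps the end of C02B10.4, had a ratio of 0.916 and a log2 difference of -0.18 ± 0.13. The unbroken run of raised levels thus began at pygo-1 and ended at C02B10.4, on both strands. It had a gap of 1378 bp between ivd-1 and snpn-1 and of 542 bp between snpn-1 and C02B10.4. Among the other tested genes that start within 100 kb of the start of pygo-1, log2 differences ran from -0.66 ± 0.12 (nspd-3) to 0.90 ± 0.10 (hot-9).

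**Figure D1:**
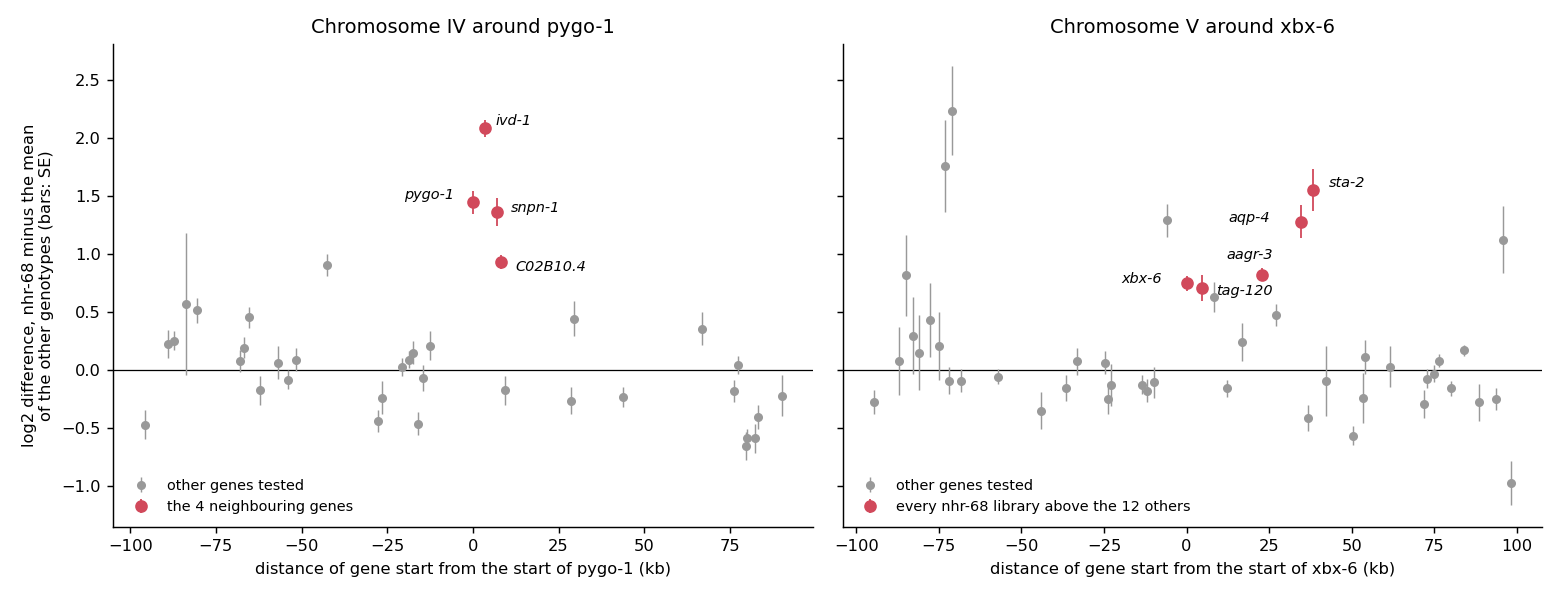
Difference in log2(FPKM + 1) between the nhr-68 strain and the mean of the other genotypes (vertical axis, bars show SE) for tested genes, by distance in kb from the start of pygo-1 on chromosome IV (one panel) and from the start of xbx-6 on chromosome V (the other panel). The 4 neighbours pygo-1, ivd-1, snpn-1 and C02B10.4 stand between 0.93 and 2.08, while C02B10.6 and C02B10.3 on either side lie at 0.21 and -0.18. Of the other genes around pygo-1, hot-9 is highest at 0.90 and nspd-3 lowest at -0.66.

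Of the higher genes elsewhere, R09E10.2 (WBGene00011172, chromosome IV, 10317563 to 10318299 on the minus strand, 2 exons) stood furthest apart. Its nhr-68 libraries read 234.35 and 200.7 FPKM untreated, 279.42 and 292.67 FPKM with vitamin B12, and 201.77 and 229.27 FPKM with propionate. Wild type read 10.47 and 15.7, 11.76 and 7.02, and 18.34 and 14.91 FPKM, and nhr-10 read 10.83 and 12.4, 23.66 and 20.76, and 12.32 and 13.14 FPKM. The 6 nhr-68 libraries of R09E10.2 were all far above the highest of the 12 others, and the ratio of the medians was 18.2.

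C27C7.1 (WBGene00007766, chromosome I, 11439289 to 11440709 on the plus strand, 5 exons) was the higher gene that came closest to the other genotypes. Its nhr-68 libraries read 53.87 and 47.62 FPKM untreated, 32.88 and 24.36 FPKM with vitamin B12, and 49.5 and 53.84 FPKM with propionate. The wild type libraries lay between 10.46 and 17.48 FPKM and the nhr-10 libraries between 17.16 and 21.88 FPKM. All nhr-68 libraries were above all others, by the smallest margin in vitamin B12 replicate 2, and the ratio of the medians was 2.80.

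Among the lower genes, nra-2 (WBGene00011488, chromosome I, 9620227 to 9622377 on the plus strand, 7 exons) varied little within the nhr-68 libraries and within the others. The nhr-68 libraries read 10.88 and 10.54 FPKM untreated, 8.49 and 9.92 FPKM with vitamin B12, and 9.94 and 12.13 FPKM with propionate. The 12 others lay between 80.89 and 100.23 FPKM with a median of 93.0. Neither group of libraries came near the other, and the median of the others was 9.09 times that of the nhr-68 strain.

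Y58A7A.3 and WBGene00194647 were close to absent from the nhr-68 libraries. Y58A7A.3 (WBGene00021977, chromosome V, 5077854 to 5080903 on the minus strand, 6 exons) read 0.62 and 1.25, 0.28 and 0.08, and 0.18 and 0.25 FPKM there under the 3 treatments, against 19.18 to 55.32 FPKM in wild type and 20.66 to 50.72 FPKM in nhr-10. WBGene00194647 (chromosome IV, 16506572 to 16507232 on the minus strand, 3 exons) read 0.65 and 0, 0 and 0.33, and 0 and 0.99 FPKM, against 6.91 to 18.25 FPKM in wild type and 10.52 to 20.12 FPKM in nhr-10. No fold change is given for either gene, since the mutant's values are near 0.

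The least separated of the 10 genes was exh-1 (WBGene00016474, chromosome V, 3157086 to 3157871 on the plus strand, 3 exons). Its nhr-68 libraries read 17.42 and 16.42 FPKM untreated, 22.93 and 32.22 FPKM with vitamin B12, and 15.73 and 14.62 FPKM with propionate. Wild type read 44.22 and 32.85, 51.58 and 37.78, and 35.61 and 31.57 FPKM, and nhr-10 read 40.84 and 49.63, 41.67 and 47.77, and 32.69 and 34.4 FPKM. Within each treatment the mutant was lower than all 4 other libraries, but its vitamin B12 replicate 2, at 32.22 FPKM, was above the lowest wild type library with propionate. The median of the others was 2.32 times that of the nhr-68 strain.

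**Figure D2:**
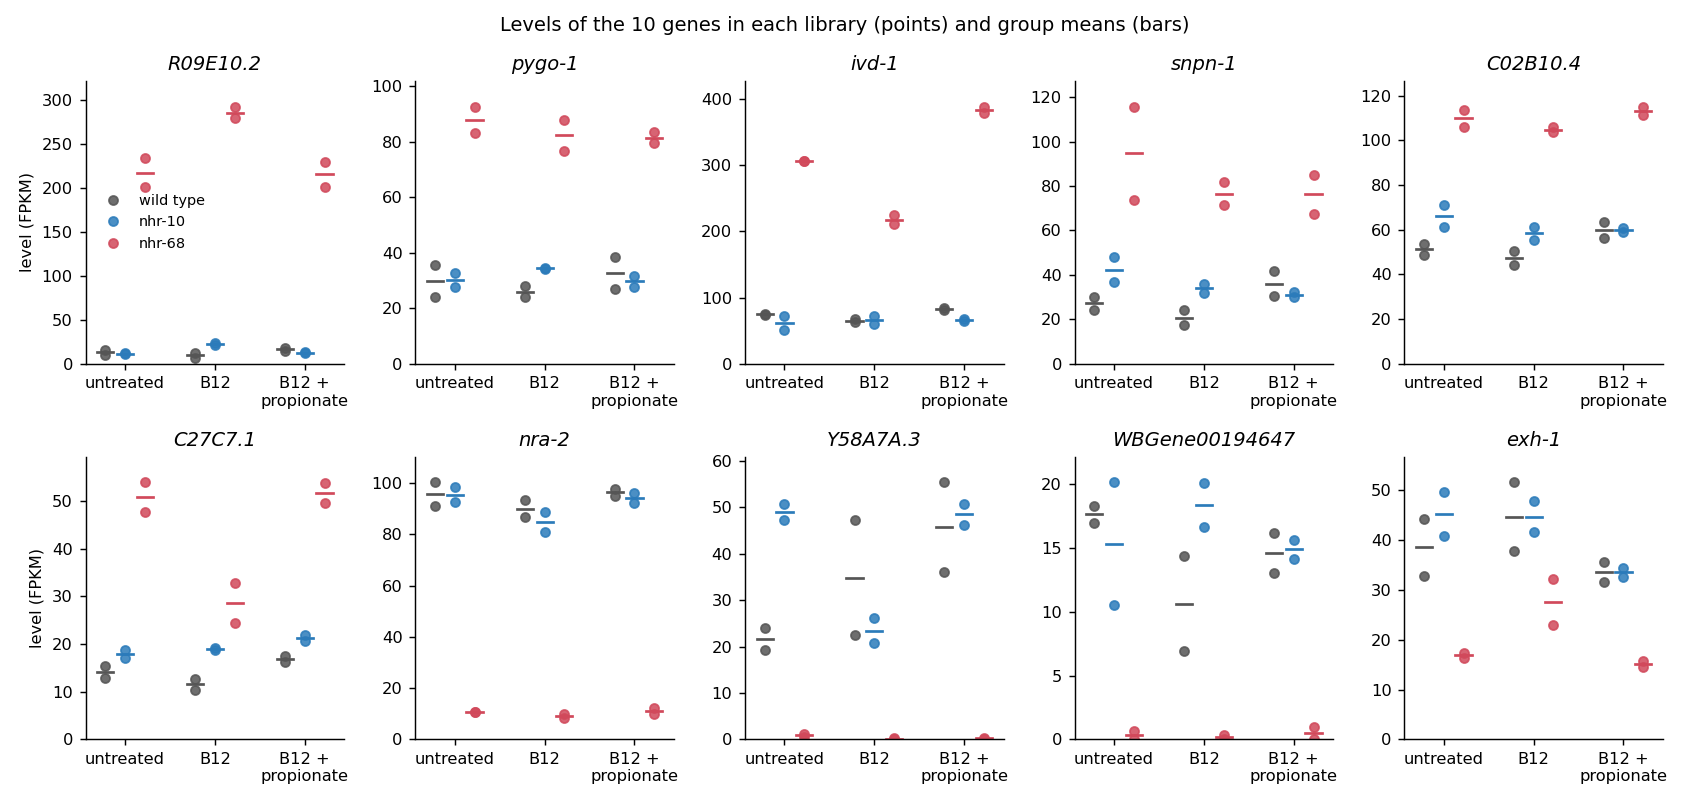
Level in FPKM (vertical axis, linear, starting at 0) of each of the 10 genes (1 panel per gene) under the 3 treatments, with 1 point per library of wild type, nhr-10 and nhr-68 and a short bar at each group's mean. The nhr-68 points lie apart from the 12 others for 9 genes, and for exh-1 the nhr-68 library at 32.22 FPKM passes the lowest wild type library.

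Of the 15575 genes tested, 520 (3.34%) had nhr-68 libraries apart from all 4 libraries of the other genotypes in each treatment, 168 (1.08%) higher and 352 (2.26%) lower. Leaving out a library makes it easier for a gene to be apart, so a rise was built into such a count. The number was 1058 without nhr-10 vitamin B12 replicate 1 and 1021 without nhr-68 vitamin B12 replicate 2. It was 792 without wild type vitamin B12 replicate 2. For 171 genes (1.1%) every nhr-68 library was apart from all 12 others, 51 (0.327%) higher and 120 (0.77%) lower, among them all of the 10 except exh-1. The same count was 287 genes (1.84%) for wild type and 60 (0.385%) for nhr-10. The genes were chosen on this very contrast, and the counts place them on the scale of the whole table only.

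The margin between the nearest nhr-68 library and the nearest of the 12 others, on the log2(FPKM + 1) scale, ordered the genes. Among genes higher in nhr-68, R09E10.2 had rank 1 with a margin of 3.03, ivd-1 rank 2 with 1.30, pygo-1 rank 3 with 0.99, C02B10.4 rank 5 with 0.54, snpn-1 rank 7 with 0.49 and C27C7.1 rank 21 with 0.15. Among genes lower in nhr-68, Y58A7A.3 had rank 1 with 3.16, nra-2 rank 2 with 2.64 and WBGene00194647 rank 3 with 1.99. The margin of exh-1 was -0.03, so its libraries met those of the others.

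The genes most like them by this margin, and not among the 10, were aagr-3 and xbx-6 on the higher side and F36D1.8 and the pseudogene WBGene00014955 on the lower. For aagr-3, an acid alpha-glucosidase homologue, the nhr-68 libraries spanned 133.58 to 149.81 FPKM and the others 71.75 to 85.95 FPKM, a margin of 0.63 that lay between those of pygo-1 and C02B10.4. For xbx-6 the nhr-68 libraries spanned 68.4 to 78.48 FPKM and the others 35.26 to 47.63 FPKM, a margin of 0.51 between C02B10.4 and snpn-1. For F36D1.8 the ranges were 0.58 to 2.09 and 3.83 to 30.17 FPKM, with a margin of 0.64, and for WBGene00014955 they were 12.21 to 16.53 and 24.53 to 48.49 FPKM, with a margin of 0.54. The 3 leading lower genes of the 10 therefore stood well past the next gene, whereas the higher genes other than R09E10.2, ivd-1 and pygo-1 were interleaved with others.

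**Figure D3:**
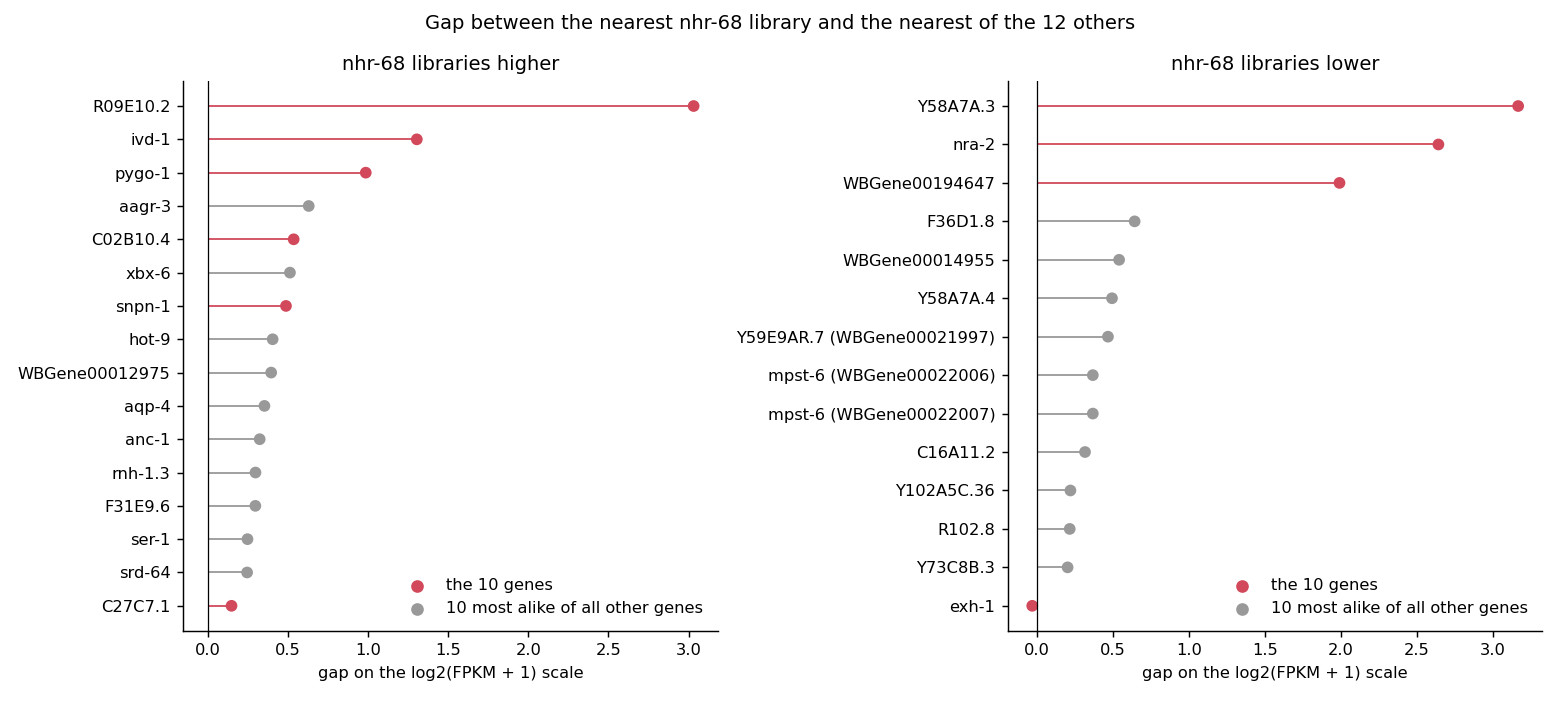
Margin in log2(FPKM + 1) between the nearest nhr-68 library and the nearest of the 12 other libraries, for the 10 genes and the 10 other genes with the widest margins on each side, higher in nhr-68 in one panel and lower in the other. R09E10.2 at 3.03, Y58A7A.3 at 3.16, nra-2 at 2.64 and WBGene00194647 at 1.99 stand past the remaining genes.

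The nhr-68 gene itself lies on chromosome V from 11573440 to 11575709. Y58A7A.3 and exh-1, the genes of the 10 on that chromosome, start 6.50 Mb and 8.42 Mb away from it. Chromosome IV held 6 of the 10 genes. It also held the largest share of tested genes for which every nhr-68 library was apart from all 12 others, with 59 of 2714 (2.17%), against 0.758% to 0.994% on the other chromosomes. Without the 6 chosen genes the share on chromosome IV was 53 of 2708 (1.96%).

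Around the 7 places where the 10 genes lie, 228 other tested genes start within 100 kb of one of them. Of these neighbours, 15 (6.58%, against 3.34% of all tested genes) were apart in every treatment. Apart from all 12 others were 7 (3.07%, against 1.1%). One of them was Y58A7A.4, 4134 bp from Y58A7A.3, which was listed at 0 in all 6 nhr-68 libraries and at 0.41 to 2.9 FPKM in the others. Another was hot-9, 42458 bp from pygo-1, at 7.7 to 10.36 FPKM in nhr-68 and 3.55 to 5.57 FPKM elsewhere, and a further one was the RNase H gene rnh-1.3, 89861 bp from nra-2, at 17.81 to 31.71 against 4.68 to 14.3 FPKM. In limma with Benjamini-Hochberg adjustment over all tested genes, neighbours that differed between nhr-68 and wild type numbered 34 untreated (14.9%, against 6.02% of all tested genes), 28 with vitamin B12 (12.3%, against 9.84%) and 22 with propionate (9.65%, against 3.13%). Against nhr-10 there were 3 (1.32%, against 0.559%), 0 (against 0.141%, with 28 at an unadjusted p under 0.05) and 10 (4.39%, against 1.28%).

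These counts of neighbours changed when 1 library of the groups compared was left out. Such a fit leaves 1 library in a group, which affects the calls of every gene. The share of all genes passing was not set beside the counts below. Whether the neighbours' share changed relative to all genes was therefore not tested. Against wild type, leaving out nhr-68 replicate 1 or 2 or wild type replicate 1 or 2 of the group gave 17, 1, 2 and 3 neighbours untreated. With vitamin B12 the 4 counts were 4, 11, 16 and 4, and with propionate 2, 3, 2 and 6. Against nhr-10 the untreated count fell to 1 without either nhr-68 library and to 0 without nhr-10 replicate 2, and the propionate count fell to 1 and 2 without nhr-68 replicate 1 and 2 and to 1 without nhr-10 replicate 2. The remaining libraries enter a comparison only through the shared estimate of spread. Leaving out nhr-10 vitamin B12 replicate 1 or 2 gave 5 untreated neighbours and 6 with propionate, and leaving out an untreated library of nhr-68 or wild type also gave 6 with propionate. On vitamin B12 the count was 1 without either wild type vitamin B12 library. None of the 228 neighbours passed in limma in all 6 comparisons of the nhr-68 strain. Passing in all 6 was rare, as 13 of all tested genes did, 7 of them among the 10 genes chosen on this contrast. The lack of such neighbours therefore does not set them apart from other genes.

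The 9505 bp run of 4 was the longest of 7 runs in which adjacent tested protein-coding genes were apart in the same direction. Y58A7A.3 formed another with Y58A7A.4, and the remaining 5 runs held none of the 10 genes.

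Under vitamin B12 in wild type, 0 of the 10 genes passed the limma test at an adjusted p of 0.05, as 0.616% of all tested genes did, and 0 of the 10 had an unadjusted p under 0.05. Propionate in wild type also gave 0 of the 10 (0.411% of all genes passed), with 5 of the 10 at an unadjusted p under 0.05. Of these, R09E10.2 went from 11.76 and 7.02 to 18.34 and 14.91 FPKM, a log2 difference of 0.79 ± 0.22 (SE) with an adjusted p of 0.107 in limma. It passed without wild type vitamin B12 replicate 1, where the lone library left is assumed to vary like the other groups, with a log2 difference of 1.13 and an adjusted p of 0.0444 in limma.

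In the nhr-10 mutant 0 of the 10 genes passed for either treatment in limma, where 0.783% of all genes passed for vitamin B12 and 7.24% for propionate. In each, 2 of the 10 genes had an unadjusted p under 0.05, and 0 passed with any 1 library of the groups compared left out. Y58A7A.3 stood at 50.69 and 47.23 FPKM untreated, 26.06 and 20.66 FPKM with vitamin B12, and 50.72 and 46.16 FPKM with propionate. Its vitamin B12 libraries lay below the other 4, with log2 differences of -1.04 (adjusted p of 0.196 in limma) for vitamin B12 and 1.03 (adjusted p of 0.0595) for propionate. R09E10.2 moved the other way, from 10.83 and 12.4 to 23.66 and 20.76 and back to 12.32 and 13.14 FPKM, with log2 differences of 0.88 (adjusted p of 0.127 in limma) and -0.76 (adjusted p of 0.0583). With median-ratio scaling of the libraries, which shifted the median of all genes by 0.12 for vitamin B12 in nhr-10, both R09E10.2 differences passed, with adjusted p-values of 0.0416 and 0.0338 in limma. With replicate number as a block, the propionate difference of Y58A7A.3 passed, with an adjusted p of 0.0459. Wild type libraries enter these comparisons only through the shared estimate of spread, and leaving out 1 of them let some propionate differences pass in limma. Y58A7A.3 passed without either vitamin B12 library (0.0315 and 0.0316) or either propionate library (0.0471 and 0.0473) of wild type, and R09E10.2 without either vitamin B12 library (0.0389) or either untreated library (0.0424).

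In the nhr-68 strain, C27C7.1 fell on vitamin B12 and rose again with propionate. Its mean went from 50.7 ± 4.42 FPKM (SD, n = 2) untreated to 28.6 ± 6.02 FPKM with vitamin B12 and to 51.7 ± 3.07 FPKM with propionate. The 2 libraries on vitamin B12 were below the other 4. The log2 difference was -0.82 ± 0.16 (SE, adjusted p of 0.0311 in limma) for vitamin B12, where C27C7.1 was the 1 gene of the 10 to pass (0.751% of all genes did), and 0.84 ± 0.16 (adjusted p of 0.0380) for propionate. Over 23 alternatives, each of the 18 libraries left out among them, the adjusted p ran from 0.0332 to 0.347 for vitamin B12 and from 0.0402 to 0.446 for propionate. The fall was lost without vitamin B12 replicate 2 (0.347), untreated replicate 1 (0.291) or untreated replicate 2 (0.126) of the nhr-68 strain, and the rise without propionate replicate 1 (0.162), propionate replicate 2 (0.446) or vitamin B12 replicate 2 (0.417). Among libraries that enter only through the shared spread, the rise was also lost without any 1 of the 6 nhr-10 libraries (0.0564 to 0.0582), either untreated nhr-68 library (0.0599 and 0.0602) or either wild type propionate library (0.0546 and 0.0548).

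The isovaleryl-CoA dehydrogenase gene ivd-1 was the other of the 2 genes that rose with propionate in the nhr-68 strain (0.417% of all genes passed). Its mean went from 217 ± 9.69 FPKM (SD, n = 2) with vitamin B12 to 384 ± 6.29 FPKM with propionate, a log2 difference of 0.82 ± 0.15 (SE, adjusted p of 0.0308 in limma). Both propionate libraries, at 388.59 and 379.7 FPKM, were above both vitamin B12 libraries. Over the alternatives the adjusted p ran from 0.00873 to 0.284, and it was 0.0557 and 0.0558 without either untreated nhr-68 library. It was 0.21 without propionate replicate 1, 0.284 without propionate replicate 2, 0.199 without vitamin B12 replicate 1 and 0.284 without vitamin B12 replicate 2. On vitamin B12, ivd-1 went from 306 ± 0.580 to 217 ± 9.69 FPKM, a log2 difference of -0.49 with an adjusted p of 0.276. For exh-1 the means were 16.9 ± 0.707 untreated, 27.6 ± 6.57 with vitamin B12 and 15.2 ± 0.785 FPKM with propionate, with adjusted p-values of 0.290 and 0.160 in limma.

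Whether the nhr-68 strain answered differently from the other genotypes was tested as a difference of responses. None of the 10 genes passed in limma in any of the 4 comparisons, and 3 of the 10 had an unadjusted p under 0.05 in each. Few genes passed at all: 0.00642% for vitamin B12 and 0.0% for propionate against wild type, and 0.0193% and 0.0321% against nhr-10. For R09E10.2 the propionate response was lower in nhr-68 than in wild type by a log2 difference of -1.20 ± 0.31 (SE, 95% interval -1.88 to -0.53, adjusted p of 0.318 in limma). For ivd-1 the propionate response was higher in nhr-68 than in nhr-10 by 0.81 ± 0.21 (adjusted p of 0.561 in limma). The changes of C27C7.1 and ivd-1 in the nhr-68 strain are therefore not shown to differ from those in the other genotypes. The comparisons between genotypes share libraries, and the values are set side by side without counting one as support for another.

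**Figure D4:**
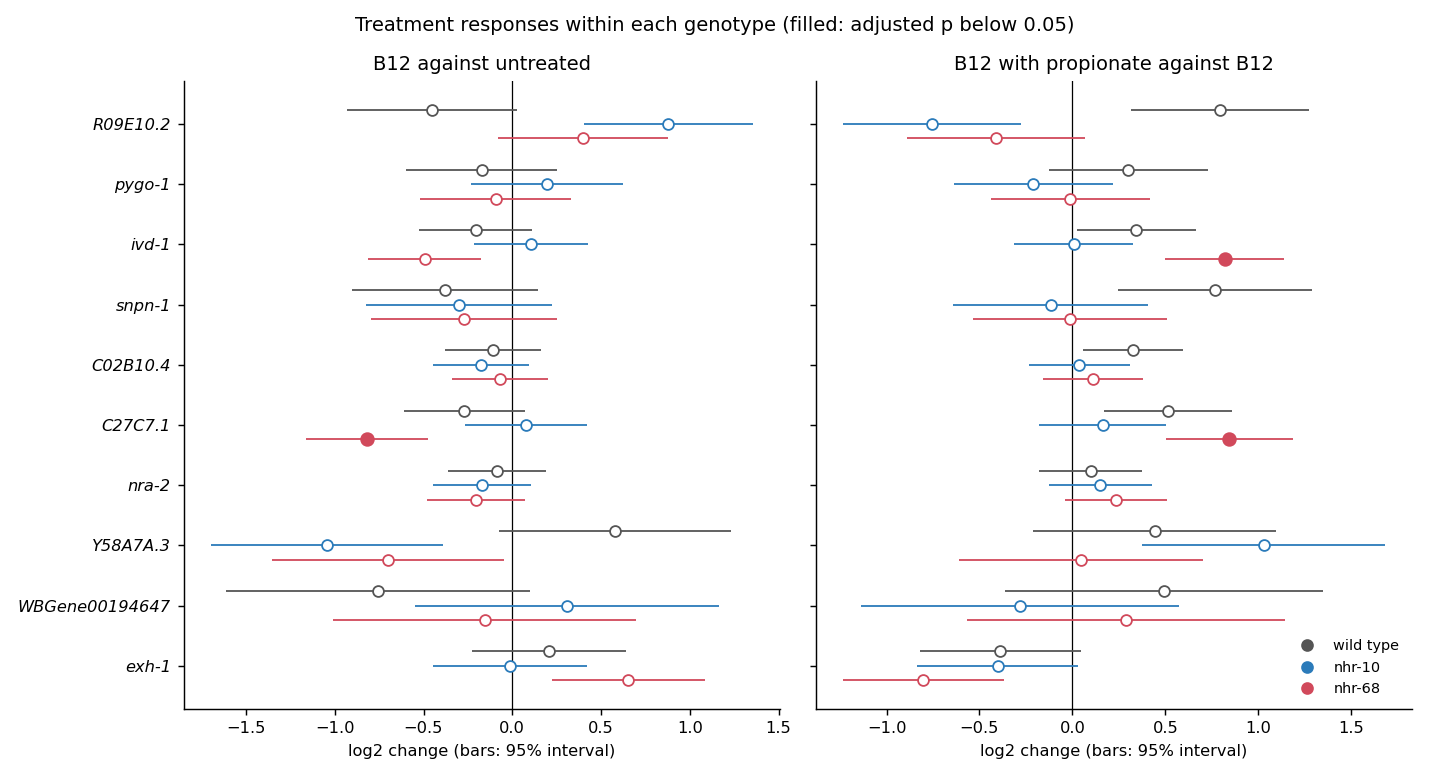
Log2 differences in log2(FPKM + 1) for the vitamin B12 and propionate responses of the 10 genes in wild type, nhr-10 and nhr-68, with bars showing 95% intervals and filled points marking an adjusted p below 0.05. In the nhr-68 strain C27C7.1 lies at -0.82 for vitamin B12 and 0.84 for propionate, and ivd-1 at 0.82 for propionate.

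Between nhr-10 and wild type, 2 of the 10 genes differed, both on vitamin B12 (9.68% of all genes passed there). The genes had been picked partly because these genotypes lay together, so this comparison is not fully free of the choice. R09E10.2 was higher in nhr-10, at 22.2 ± 2.05 FPKM (SD, n = 2) against 9.39 ± 3.35 FPKM in wild type, a log2 difference of 1.20 ± 0.22 (SE, adjusted p of 0.0082 in limma). C27C7.1 was at 18.9 ± 0.311 against 11.6 ± 1.56 FPKM, a log2 difference of 0.67 ± 0.16 (adjusted p of 0.0232). Neither pair of groups overlapped, and all of these libraries were below every nhr-68 library of the same gene, the nearest being C27C7.1 in nhr-68 vitamin B12 replicate 2, at 24.36 FPKM. The adjusted p of R09E10.2 ran from 0.00602 to 0.126 over the alternatives and was 0.0971 without nhr-10 vitamin B12 replicate 1 and 0.101 without wild type vitamin B12 replicate 2. That of C27C7.1 ran from 0.0206 to 0.179 and was 0.179 without nhr-10 vitamin B12 replicate 1, 0.103 without wild type vitamin B12 replicate 1 and 0.0798 without wild type vitamin B12 replicate 2.

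Untreated and with propionate, 0 of the 10 genes passed between nhr-10 and wild type in limma (1.39% and 7.19% of all genes did), with 3 and 0 unadjusted p-values under 0.05. The widest untreated difference was in Y58A7A.3, at 50.69 and 47.23 FPKM in nhr-10 and 24.05 and 19.18 FPKM in wild type, with an adjusted p of 0.0919 in limma. It passed without either wild type vitamin B12 library (0.0368 and 0.0373), which enters only through the shared spread. Of the 57 tissue markers, those that also differed between nhr-10 and wild type in limma are named here. They were 1 of 9 intestine and 2 of 7 hypodermis and cuticle markers on vitamin B12, where 9.68% of all genes passed. With propionate they were 2 of 7 hypodermis and cuticle and 2 of 9 sperm markers, where 7.19% of all genes passed. On vitamin B12, ifb-2 was higher in nhr-10 (0.80 ± 0.22, adjusted p of 0.0399). The collagen genes dpy-13 (-1.88 ± 0.42, adjusted p of 0.0196) and sqt-3 (-1.69 ± 0.49, adjusted p of 0.0482) were lower there. With propionate, cuticle markers dpy-7 (3.61 ± 0.54, adjusted p of 0.00179 in limma) and bli-1 (2.52 ± 0.54, adjusted p of 0.0142) were higher. The sperm genes spe-11 (-0.53 ± 0.14, adjusted p of 0.0396 in limma) and msp-142 (-0.61 ± 0.17, adjusted p of 0.046) were lower. Within nhr-10, propionate raised dpy-7 (2.15 ± 0.54), sqt-3 (2.05 ± 0.49) and bli-1 (2.05 ± 0.54) and lowered msp-142 (-0.75 ± 0.17). Of all tested genes, 7.24% passed for propionate within nhr-10. The part of these markers in the results was not tested.

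Pathway partners of the 4 genes with a known role were counted from lists. Of 10 genes of leucine breakdown, ivd-1 included, 3 rose with propionate in the nhr-68 strain (0.417% of all tested genes passed): ivd-1, kat-1, an acetyl-CoA acetyltransferase gene (log2 difference of 1.02 ± 0.19, adjusted p of 0.0345 in limma), and C05C10.3, a 3-oxoacid CoA-transferase homologue (1.57 ± 0.19, adjusted p of 0.00266). On vitamin B12 in that strain, where 0.751% of all genes passed, C05C10.3 fell (-1.30 ± 0.19, adjusted p of 0.00485 in limma). The median of the list was 0.09 for propionate and -0.12 for vitamin B12, beside 0.05 and -0.06 over all tested genes. The rise of kat-1 did not pass without any 1 of the 4 libraries compared (adjusted p of 0.11 to 0.373) or without either wild type vitamin B12 library (0.0544 and 0.0547), and that of C05C10.3 did not pass without propionate replicate 2 (0.059). The fall of C05C10.3 did not pass without vitamin B12 replicate 2 (0.0681), untreated replicate 1 (0.0636) or untreated replicate 2 (0.0549).

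Of the 9 leucine breakdown genes besides ivd-1, 1 differed between untreated nhr-68 and wild type (6.02% of all genes did), namely C05C10.3 (1.19 ± 0.19, adjusted p of 0.00646 in limma), which did not pass without nhr-68 untreated replicate 2 (0.0761) or wild type untreated replicate 2 (0.056). Against nhr-10, 2 of the 9 were higher in nhr-68 untreated and 2 with propionate, where 0.559% and 1.28% of all genes passed. C05C10.3 was higher untreated (2.28 ± 0.19, adjusted p of 4.61e-05 in limma) and with propionate (2.38 ± 0.19, adjusted p of 2.55e-05), and kat-1 by 0.99 ± 0.19 (adjusted p of 0.0369) and 0.88 ± 0.19 (adjusted p of 0.0433). The kat-1 calls were not stable: over the alternatives the untreated one was lost in 12 of 23, with an adjusted p up to 0.374, and the propionate one in 14 of 23, with an adjusted p up to 0.357. On vitamin B12, 0 of the 9 passed against either genotype in limma, with 1 at an unadjusted p under 0.05 in each comparison.

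C05C10.3 was also lower in nhr-10 than in wild type under every treatment, untreated (-1.09 ± 0.19, adjusted p of 0.0147 in limma), with vitamin B12 (-0.95 ± 0.19, adjusted p of 0.0129) and with propionate (-1.76 ± 0.19, adjusted p of 0.000232). The untreated call was lost without nhr-10 replicate 1 (0.0517), nhr-10 replicate 2 (0.162) or wild type replicate 1 (0.0996), and the vitamin B12 call without nhr-10 replicate 1 (0.056) or either wild type library (0.0616 and 0.0589). The branched-chain aminotransferase gene bcat-1 was lower in nhr-10 on vitamin B12 (-0.63 ± 0.15, adjusted p of 0.0223 in limma), a call lost without nhr-10 replicate 1 (0.151), nhr-10 replicate 2 (0.0539) or wild type replicate 2 (0.177). Untreated, with vitamin B12 and with propionate, 1.39%, 9.68% and 7.19% of all genes differed between these genotypes.

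Of 27 Wnt signalling genes besides pygo-1, 2 differed between nhr-68 and wild type untreated, 2 with vitamin B12 and 1 with propionate, near the shares of 6.02%, 9.84% and 3.13% of all tested genes. Higher in untreated nhr-68 were the Wnt ligand gene mom-2 (0.99 ± 0.24, adjusted p of 0.0361 in limma) and mig-14, the Wntless homologue needed for Wnt secretion (0.71 ± 0.17, adjusted p of 0.0321). With vitamin B12, mig-14 was higher (0.72 ± 0.17, adjusted p of 0.0202 in limma) and the kinase gene lit-1 lower (-0.98 ± 0.24, adjusted p of 0.0220). With propionate, the Axin homologue pry-1 was higher (0.66 ± 0.16, adjusted p of 0.0428 in limma). Single libraries decided these calls: mig-14 did not pass without any 1 of its 4 libraries (0.0569 to 0.295 untreated, 0.0531 to 0.174 with vitamin B12), nor did pry-1 (0.129 to 0.232), which was also lost without 8 libraries of other groups (0.054 to 0.0641). The mom-2 call was lost without nhr-68 replicate 2 (0.355), wild type replicate 1 (0.213) or wild type replicate 2 (0.0679), and without 3 treated nhr-68 libraries (0.05 to 0.0506). The lit-1 call was lost without nhr-68 replicate 1 (0.202), wild type replicate 1 (0.0568) or wild type replicate 2 (0.14). Against nhr-10, 0 of the 27 passed in limma, with 6, 2 and 3 at an unadjusted p under 0.05 untreated, with vitamin B12 and with propionate. Of all 28 Wnt genes, pygo-1 included, 4 rose with propionate in nhr-10, namely lit-1, cwn-2, mom-1 and cam-1 (7.24% of all genes passed). In that order, these calls were lost in 4, 17, 3 and 16 of 23 alternatives. Against wild type on vitamin B12, wrm-1 was higher (0.74 ± 0.22) and lit-1 lower (-1.01 ± 0.24) in nhr-10. With propionate, cwn-2 (1.11 ± 0.27) and mom-1 (0.71 ± 0.19) were higher in nhr-10. The calls of wrm-1, lit-1, cwn-2 and mom-1 were lost in 17, 3, 3 and 15 of 23 alternatives. Of all genes, 9.68% passed in the vitamin B12 comparison and 7.19% with propionate.

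Of 10 other genes of BLOC-1 and BORC, the complexes of snpn-1, 1 passed: blos-8, lower in nhr-68 than in nhr-10 with propionate, where 1.28% of all genes passed (-1.15 ± 0.25, adjusted p of 0.0450 in limma). It did not pass without any 1 of the 4 libraries (0.0562 to 0.357), and over the alternatives it was lost in 20 of 23. Of 14 other genes of levamisole receptor assembly, the partners of nra-2, 0 passed between nhr-68 and either genotype in limma, and 0 to 3 had an unadjusted p under 0.05 in the 6 comparisons. The gene of the NRA-2 partner protein NRA-4, nra-4, was lower in nhr-10 than in wild type with vitamin B12, where 9.68% of all genes passed (-0.60 ± 0.14, adjusted p of 0.0244 in limma). That call was lost without nhr-10 replicate 1 (0.248), wild type replicate 1 (0.0606) or wild type replicate 2 (0.155). The other way round, molo-1, an auxiliary protein gene of levamisole receptors, was higher in nhr-10 with propionate, where 7.19% of all genes passed (0.72 ± 0.17, adjusted p of 0.0265 in limma). It did not pass without any 1 of the 4 libraries compared (0.0793 to 0.136).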

How the data were processed

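The authors deposited 1 table of FPKM values per gene and library. Per the submitters' processing notes, HISAT, Bowtie2, RSEM and the WBcel235 assembly were used, with tool versions, settings and strand use not given in the sources used here. Similar genes can split ambiguous reads under RSEM. Raw counts were not used here, so depth is an estimate, and exact zeros near the detection limit were not given folds. None of 10 housekeeping genes was at 0.

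Genes at 1 FPKM or more in at least 2 libraries were kept (15575 genes, all 10 described genes among them), and log2(FPKM + 1) was fitted with limma 3.58.1 in R 4.3.3 over all 9 groups, with 9 residual and 3.60 prior degrees of freedom. For low genes the added 1 makes such differences smaller than the true change. P-values were adjusted over all tested genes by Benjamini-Hochberg, with a threshold of 0.05, and the fit was tested on simulated data. Coordinates come from Ensembl release 115, which lacks 208 of the table's gene IDs. Of the tested genes, 87 had values identical to another gene's, none of them among the 10.

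The 10 genes, the pathway and marker lists and the rule for further named genes (the widest margins in each direction, called neighbours within 100 kb, and called list genes) were chosen with earlier results of these data known. The neighbours named, the runs, and the chromosome V stretch were chosen after their values were seen. Alternatives were median-ratio scaling, a pseudocount of 0.1, no filter, only the compared groups, replicate number as a block, windows of 50 and 200 kb, and each library left out in turn. Leaving out libraries outside the groups compared, which enter only through the shared estimate of spread, was chosen after seeing the data.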

Additional observations from a re-analysis of the deposited data

How the results depend on the processing

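Under the alternatives tried, no result changed direction, and the 10 genes kept their direction apart from the other genotypes under median-ratio scaling. That scaling moved C02B10.4 to a log2 difference of 1.02. Of 469 alternative counts, 387 stayed within 1.5 times the reported one. The cause was not tested for those that moved, with 3 exceptions. A smaller window holds fewer genes, a lone pair of groups fewer samples, and with fewer libraries it is easier to be apart.

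Counts of the 10 genes passing became, with median-ratio scaling, 1 for vitamin B12 and 1 for propionate in nhr-10, 0 for each in nhr-68, and 1 for nhr-10 against wild type on vitamin B12. With only the compared groups they were 0 for all 3 of the comparisons that had calls. Leaving out any 1 of the 18 libraries gave 0 to 1 for propionate in wild type, 0 to 2 for propionate in nhr-10, 0 to 1 for vitamin B12 in nhr-68, 0 to 2 for propionate in nhr-68, 0 to 1 for nhr-10 against wild type untreated and 0 to 2 for nhr-10 against wild type on vitamin B12.

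Neighbours of nhr-68 against wild type passing numbered 0 untreated, and 0 with propionate, with only the compared groups, and 19 untreated and 15 with vitamin B12 within 50 kb. Leaving out 1 library gave 1 to 41 untreated, 4 to 31 with vitamin B12 and 2 to 25 with propionate. Against nhr-10, untreated neighbours numbered 8 with median-ratio scaling, 5 without the filter, 0 with only the compared groups and 7 within 200 kb; on vitamin B12 they numbered 1 with median-ratio scaling and 1 within 200 kb; with propionate 1 with only the compared groups, 5 with a pseudocount of 0.1 and 19 within 200 kb. Leaving out 1 library gave 0 to 5 untreated, 0 to 1 with vitamin B12 and 1 to 10 with propionate. Genes apart in every treatment numbered 527 to 1058 without 1 library, where fewer libraries make it easier to be apart.

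Median-ratio scaling shifted the median of all genes by over 0.1 in 4 comparisons, by at most 0.154 on the log2 scale. Replicate numbers did not pair the libraries uniformly. Over 36 pairs of groups the correlation of same-numbered deviations ran from -0.379 to 0.563, with a median of 0.08 and 15 of the 36 over 0.1. With replicate number as a block, 1 gene, Y58A7A.3, passed for propionate in nhr-10, and blos-8 no longer passed. With 2 libraries a group, a missed threshold does not show that values were alike.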

Other observations

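A second stretch of chromosome V held several genes that were higher in the nhr-68 strain and are not among the 10; it was picked out after its values were seen and is described without a test. It runs from xbx-6, which starts at 9703055, to sta-2, which ends at 9744331, in the WBcel235 assembly. Every nhr-68 library was above all 12 others for xbx-6 and tag-120, for the acid alpha-glucosidase homologue aagr-3, for the aquaporin gene aqp-4 and for sta-2, a STAT homologue. The log2 differences of the nhr-68 strain from the mean of the other genotypes were 0.75 ± 0.07 (SE) for xbx-6, 0.70 ± 0.11 for tag-120, 0.82 ± 0.05 for aagr-3, 1.28 ± 0.14 for aqp-4 and 1.55 ± 0.18 for sta-2.

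Unlike the chromosome IV run, the stretch was interrupted. The nhr-68 libraries of F40F9.3, between tag-120 and aagr-3, spanned 29.8 to 42 FPKM against 27.96 to 48.77 FPKM in the others, and those of marc-1, between aqp-4 and sta-2, spanned 3.26 to 7.02 FPKM against 3.88 to 7.54 FPKM. For her-1, a secreted sex-determination protein gene just before xbx-6, the nhr-68 libraries spanned 0.89 to 5.3 FPKM. They overlapped the others, which spanned 0 to 1.39 FPKM, but the log2 difference of her-1 was 1.29 ± 0.14. Inside the stretch, F40F9.10 (0.63 ± 0.13) and drap-1 (0.47 ± 0.09) were also higher on average, with libraries that overlapped the others.

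Of the 7 runs of adjacent genes apart in 1 direction, 5 lay on chromosome IV, and 4 of those held genes lower in the nhr-68 strain. One was mpst-6 and Y59H11AM.4, where the 2 gene IDs that share the name mpst-6 have identical values in the table. Their nhr-68 libraries spanned 5.4 to 7.39 FPKM and the others 9.84 to 24.58 FPKM.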
